A study of Homo sapiens with 4 samples.

Results

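The 10 genes described here, of 26485 gene names in the deposited tables, are enzymes that modify foreign compounds and 1 carrier through which taxanes enter cells. They were chosen by name, with earlier results of these data known. They are the cytochrome P450 enzymes CYP2C8, CYP3A4, CYP3A5, CYP1A1 and CYP1B1, the aldo-keto reductases AKR1C1, AKR1C2, AKR1C3 and AKR1B10, and the carrier SLCO1B3. The mRNA was sequenced in SW1736 and 8505C, established lines of human anaplastic thyroid cancer (ATC), each as wild-type (wt) cells that had not been selected and as paclitaxel-resistant (PTX) cells. PTX cells had been selected over 6 months with paclitaxel, a microtubule-stabilizing taxane, at doses that rose from 1 nM to 1.5 µM, and they were then grown with 1.5 µM paclitaxel in the medium. All 4 cultures were kept in the same base medium, the labels name no engineered gene, and whether a PTX line came from 1 clone is not stated in the sources used here. There was 1 library for each of the 4 groups, so the spread between cultures of a group is unknown, each line is described on its own, and no p-value is given.

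Paclitaxel is cleared mainly in the liver, where the carrier encoded by SLCO1B3 takes it up and the P450 enzymes CYP2C8 and CYP3A4 hydroxylate it. P450 enzymes of the CYP1 branch are induced by the aryl hydrocarbon receptor (AHR), a ligand-activated transcription factor that senses planar aromatic compounds. Aldo-keto reductases use NADPH to reduce aldehydes and ketones, and those of the AKR1C branch also act on steroids and prostaglandins. AKR1C genes and AKR1B10 are known target genes of NRF2, the transcription factor of the oxidant response.

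In the PTX libraries of both lines, the 3 AKR1C transcripts stood far above their wt levels, CYP1A1 was higher and SLCO1B3 was lower. CYP1B1 and AKR1B10 did not share a direction between the lines when each PTX library was set against its own wt library. With 8505C wt as the reference, the SW1736-PTX value of both genes turned positive, with neither library above 0.5 FPKM. The P450 enzymes that hydroxylate paclitaxel were at or near 0 in all 4 libraries.

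The RefSeq promoters of the genes that stood higher in both PTX libraries are shown first, because the AKR1C genes lie side by side on chromosome 10 and are near copies of each other. RefSeq promoter sequences on build GRCh38.p14, from 250 bases before to 50 bases after a transcription start, were found for 8 of the 10 genes and gave 9 promoters, since AKR1C3 has a pair of starts. AKR1B10 and CYP1B1 had no entry. The windows are chr10:4963165-4963464 on the plus strand for AKR1C1, chr10:5003808-5004107 on the minus strand for AKR1C2, and chr10:5048531-5048830 and chr10:5094164-5094463 on the plus strand for AKR1C3. In these, capitals mark the longest run that all 4 AKR1C promoters share. For CYP1A1, the window is chr15:74725479-74725778 on the minus strand, and capitals mark GCGTG, the core of the element that AHR binds.
AKR1C1: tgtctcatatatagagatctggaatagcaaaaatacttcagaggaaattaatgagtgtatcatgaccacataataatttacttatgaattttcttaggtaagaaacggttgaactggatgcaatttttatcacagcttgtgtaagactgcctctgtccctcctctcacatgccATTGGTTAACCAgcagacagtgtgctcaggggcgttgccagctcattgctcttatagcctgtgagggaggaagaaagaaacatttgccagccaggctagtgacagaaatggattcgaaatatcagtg
AKR1C2: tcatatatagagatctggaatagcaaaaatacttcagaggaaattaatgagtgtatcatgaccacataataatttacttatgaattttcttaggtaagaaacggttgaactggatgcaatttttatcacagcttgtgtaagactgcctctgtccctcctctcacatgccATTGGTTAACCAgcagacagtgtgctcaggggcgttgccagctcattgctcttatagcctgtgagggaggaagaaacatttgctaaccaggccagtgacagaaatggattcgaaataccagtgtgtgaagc
AKR1C3: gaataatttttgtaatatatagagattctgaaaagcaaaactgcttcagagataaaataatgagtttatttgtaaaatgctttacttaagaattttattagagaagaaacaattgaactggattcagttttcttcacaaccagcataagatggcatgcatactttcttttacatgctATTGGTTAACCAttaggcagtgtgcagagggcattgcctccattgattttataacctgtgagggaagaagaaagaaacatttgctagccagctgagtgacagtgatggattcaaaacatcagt
AKR1C3 start 2: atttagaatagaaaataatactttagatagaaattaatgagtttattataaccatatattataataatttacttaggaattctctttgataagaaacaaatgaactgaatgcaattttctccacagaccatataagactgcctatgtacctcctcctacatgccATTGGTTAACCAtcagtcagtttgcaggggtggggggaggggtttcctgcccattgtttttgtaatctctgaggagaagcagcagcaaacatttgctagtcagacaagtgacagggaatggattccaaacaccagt
CYP1A1: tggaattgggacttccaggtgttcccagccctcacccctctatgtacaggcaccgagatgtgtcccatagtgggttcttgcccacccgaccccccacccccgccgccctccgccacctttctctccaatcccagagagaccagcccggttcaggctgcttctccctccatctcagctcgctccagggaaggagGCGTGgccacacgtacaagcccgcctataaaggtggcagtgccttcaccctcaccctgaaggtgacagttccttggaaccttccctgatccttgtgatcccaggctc

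The AKR1C1 and AKR1C2 promoters were identical at 93.5% of aligned positions (288 of 308), gaps included. AKR1C1 and the nearer AKR1C3 promoter were identical at 74.7%, AKR1C2 and that AKR1C3 promoter at 70.2%, and the AKR1C3 promoters with each other at 69.4%. The shared run, ATTGGTTAACCA, has 12 bases and begins 77, 81, 73 and 86 bases before the start in AKR1C1, AKR1C2, AKR1C3 and AKR1C3 start 2. On either strand it was present in 5 of 35116 RefSeq promoters, the 4 above and that of PPFIA2. It was chosen after the sequences were compared, and it overlaps the reverse of CCAAT, the CCAAT box. CCAAT on either strand was present in 8 of the 9 promoters of these genes and in 34.6% of all promoters.

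GCGTG on either strand was present in CYP1A1 alone, 57 bases before the start, and in 36.5% of all promoters. The 9-base core TGACNNNGC of the antioxidant response element, which NRF2 binds, was in none of the 9 promoters and in 13.3% of all promoters. The TATA box, searched as TATAAA on either strand, was in 4 of the 9, those of CYP3A4, CYP2C8, CYP1A1 and the nearer AKR1C3 start, and in 11.5% of all. These matches describe letters in a short window only.

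The deposited values are FPKM, aligned fragments scaled to gene length and library depth, which allow levels of different genes to be compared per length. Libraries held between 43.5 M and 57.9 M aligned reads of 75 bp, as estimated from coverage divided by FPKM. A change was computed as log2 of the ratio of FPKM + 0.1, which understates the change of low genes, and a gene was compared where its FPKM exceeded 0.5 in at least 1 library of the pair. A compared gene was called higher or lower where its log2 fold change was beyond 1.5. Read numbers were estimated from FPKM, exon length and the estimated depth. Intervals computed from them are 95% intervals that cover counting error only, since no marking of PCR copies is stated. Fewer cells of a kind and less RNA per cell cannot be told apart in such bulk libraries.

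The labels were checked against 7 markers of thyroid cells, whose summed level was 64.8, 37.0, 30.7 and 39.3 FPKM in SW1736 wt, SW1736-PTX, 8505C wt and 8505C-PTX. PAX8, a transcription factor of the thyroid lineage, had an FPKM of 38.2 in SW1736 wt, 0.206 in SW1736-PTX, 0.123 in 8505C wt and 0.146 in 8505C-PTX. FOXE1, another such factor, had 26.6, 0.511, 0.0443 and 0.178 FPKM in the same order, and NKX2-1, a further one, had 0, 36.3, 30.5 and 39.0. In these 3 factors the library labelled SW1736-PTX had levels near those of the 8505C libraries and far from those of SW1736 wt. TSHR, the thyrotropin receptor, and SLC5A5, the iodide carrier, were listed at 0 in all 4 libraries, and thyroglobulin (TG) was at or below 0.00586 FPKM. What separates SW1736-PTX from SW1736 wt beyond the selection was not tested. The 10 genes in SW1736-PTX are therefore given against SW1736 wt and, as an alternative chosen after the data were seen, against 8505C wt. For the gene lists around them it is given as counts, with the values of some genes.

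Against SW1736 wt, 7 of the 10 genes could be compared in SW1736-PTX, and 4 were called higher and 3 lower. Among all 14202 genes compared, 25.9% were called, 15.7% higher and 10.2% lower. In 8505C-PTX against 8505C wt, 6 genes could be compared, of which 5 were called higher and 1 lower, beside 20.9% called among all 13794 genes, 15% higher and 5.89% lower. With 8505C wt as the reference of SW1736-PTX, 5 genes could be compared, 4 called higher and 1 lower, beside 20.4% of 13824 genes, 15.1% higher and 5.23% lower. The last comparison shares a library with each of the others, so the 3 are given side by side only. The median log2 fold change of all genes compared was 0.01, 0.11 and 0.10, in the same order. A gene above 0.5 FPKM in only 1 library of a pair can be called in 1 direction only. In SW1736 this held for AKR1C2, which entered through PTX, and for CYP1B1, AKR1B10 and SLCO1B3, which entered through wt. In 8505C it held for CYP1A1, AKR1C2 and AKR1B10 (PTX) and SLCO1B3 (wt). Against 8505C wt, SW1736-PTX alone brought in CYP1A1 and AKR1C2, and 8505C wt alone SLCO1B3.

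**Figure D1:**
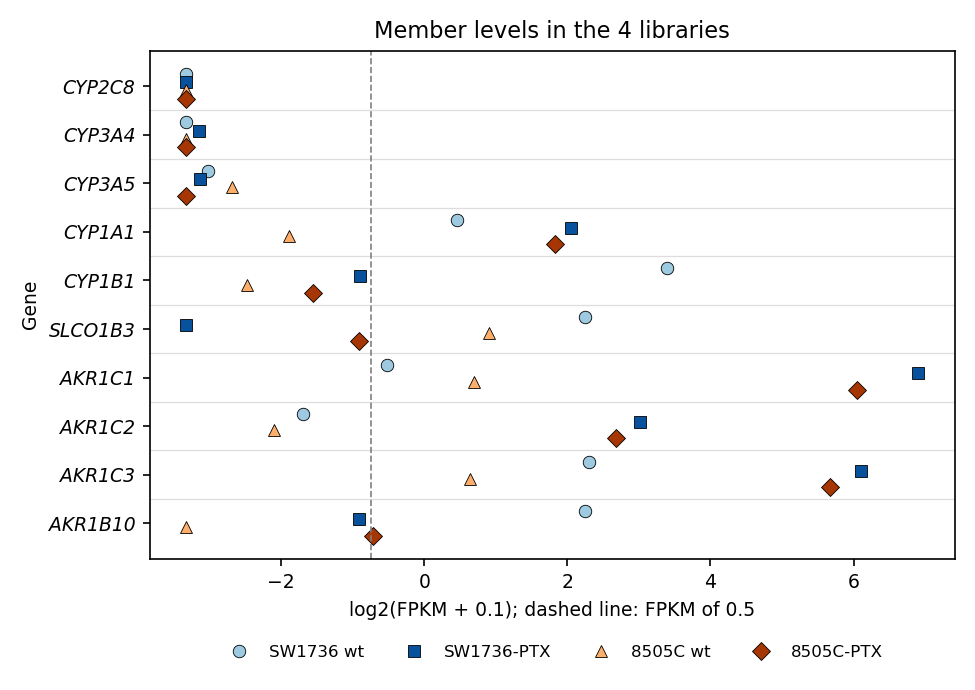
Level of each gene in the 4 libraries as log2(FPKM + 0.1), 1 point per library, with a dashed line at 0.5 FPKM. The AKR1C genes and CYP1A1 lie further right in both PTX libraries than in either wt library, SLCO1B3 lies further left in both, and CYP2C8, CYP3A4 and CYP3A5 lie near the left edge, which stands for 0.

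AKR1C1 had the largest log2 fold change of the 10 genes in SW1736, and in 8505C also on the FPKM + 0.1 scale, whereas the plain ratio was larger for AKR1C2 there. AKR1C1 encodes a reductase that inactivates progesterone and reduces reactive aldehydes, and its deposited locus is chr10:4963262-4977966 on the plus strand of hg38. SW1736 wt had 0.597 FPKM, SW1736-PTX 119.5, 8505C wt 1.52 and 8505C-PTX 66.0. Both PTX libraries were thus above both wt libraries by more than an order of magnitude. SW1736-PTX was 200.1-fold above SW1736 wt (log2 fold change 7.42), on about 8484 and 36 reads, and the counting interval of the log2 ratio ran from 7.17 to 8.15. 8505C-PTX was 43.5-fold above 8505C wt (log2 fold change 5.35, interval of the log2 ratio 5.13 to 5.78). Against 8505C wt, SW1736-PTX was 78.7-fold higher (log2 fold change 6.21). Its log2 fold change ranked 58 from the highest of 14202 genes in SW1736 and 54 of 13794 in 8505C. The deposited locus holds 1226 of the 6543 bases of the MANE transcript, the reference transcript of GENCODE release 44, and read numbers were estimated on these bases.

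AKR1C2 encodes a reductase that inactivates dihydrotestosterone, and its deposited locus is chr10:4987776-5018033 on the minus strand. SW1736 wt had 0.208 FPKM, SW1736-PTX 7.98, 8505C wt 0.135 and 8505C-PTX 6.28. It stayed the lowest of the 3 AKR1C genes in every library. The ratio to its own wt library was 38.4 in SW1736 (log2 fold change 4.71, interval of the log2 ratio 4.75 to 5.79) and 46.7 in 8505C (log2 fold change 4.77, interval 4.88 to 6.27). The log2 fold change can lie below the interval because of the 0.1 added to each level. Against 8505C wt, SW1736-PTX was 59.3-fold higher.

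AKR1C3 makes testosterone from androstenedione and reduces prostaglandin D2, and its deposited locus is chr10:5048766-5107686 on the plus strand. SW1736 wt had 4.82 FPKM, SW1736-PTX 68.6, 8505C wt 1.45 and 8505C-PTX 50.7. In the wt libraries it was the highest AKR1C gene in SW1736 and was close to AKR1C1 in 8505C. SW1736-PTX was 14.2-fold above SW1736 wt (log2 fold change 3.80, interval of the log2 ratio 3.65 to 4.01), and 8505C-PTX was 34.95-fold above 8505C wt (log2 fold change 5.03, interval 4.80 to 5.48). Against 8505C wt, SW1736-PTX was 47.2-fold higher (log2 fold change 5.47).

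Reads of the AKR1C genes can be assigned to the wrong copy. Of the 75-base windows of the AKR1C1 transcript within the deposited locus, 37.9% also occur in another gene, nearly all of these in AKR1C2 (36.3%). For AKR1C2 the share was 36.0%, with 33.9% in AKR1C1, and for AKR1C3 it was 12.3%. How the reads of shared windows were divided is not given in the sources used here, so the split among the 3 genes is uncertain. The summed level still depends on it in part, since AKR1C2 is longer. SW1736 wt had a summed level of 5.62 FPKM, SW1736-PTX 196, 8505C wt 3.10 and 8505C-PTX 123.03. The sum was 34.9-fold higher in SW1736-PTX and 39.6-fold higher in 8505C-PTX than in their own wt library, and 63.2-fold higher in SW1736-PTX than in 8505C wt. The sum of estimated reads per M reads was 35.6-, 40.2- and 63.1-fold higher. A split among the copies leaves this sum unchanged only if the exon lengths used here match those behind the FPKM, which is not known. The share of AKR1C1 in the sum was 10.6% and 61.0% in wt and PTX cells of SW1736, and 48.9% and 53.7% in those of 8505C.

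Other genes of this stretch of chromosome 10 did not have this pattern. Within 500000 bp of the 3 genes the tables list 12 other genes, of which 10 did not exceed 0.5 FPKM in any library. These include AKR1C4, the liver form of the branch, AKR1E2 and the pseudogenes AKR1C6P and AKR1C8P, each listed at 0 in all 4 libraries. The compared neighbours were LINC00704, a long non-coding RNA, with 16.8, 0.463, 1.12 and 0.225 FPKM in SW1736 wt, SW1736-PTX, 8505C wt and 8505C-PTX (log2 fold change -4.91 and -1.91, and -1.112 and not called in SW1736-PTX against 8505C wt), and NET1, a RhoA exchange factor, which was not called (-1.39 and -0.31).

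AKR1B10, which reduces retinals and lipid aldehydes, behaved differently from the AKR1C genes. Its deposited locus is chr7:134527592-134541414 on the plus strand. In SW1736 it had 4.63 FPKM in wt and 0.431 in PTX cells, and in 8505C it was listed at 0 in wt and had 0.508 FPKM in PTX cells. SW1736 wt alone was above 1 FPKM, and the PTX libraries were close to each other. SW1736-PTX was 10.8-fold below SW1736 wt (log2 fold change -3.16, interval of the log2 ratio -3.93 to -2.94). In 8505C-PTX it was called higher, but no ratio can be given against a library listed at 0, and at about 43 reads the level was just over the limit of 0.5 FPKM. That call was not made with an FPKM minimum of 1 or with a pseudocount of 1. Against 8505C wt, SW1736-PTX was not compared, since neither exceeded 0.5 FPKM. AKR1B15, its closest relative, holds 4.74% of its 75-base windows and was at or below 0.43 FPKM. Within 500000 bp of AKR1B10, 5 other genes were compared, AKR1B1 among them. In SW1736-PTX their log2 fold changes ran from -2.12 to -0.89 (median -1.20), and SLC35B4 was called lower. The median was -0.31 in 8505C-PTX and -0.60 in SW1736-PTX against 8505C wt, with 0 called in each.

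CYP1A1, the P450 enzyme that oxidizes polycyclic aromatic hydrocarbons, was higher in both PTX libraries. Its deposited locus is chr15:74719542-74725536 on the minus strand. SW1736 wt had 1.27 FPKM, SW1736-PTX 4.04, 8505C wt 0.169 and 8505C-PTX 3.46. The PTX libraries were near each other and the wt libraries were far apart. SW1736-PTX was 3.17-fold above SW1736 wt (log2 fold change 1.59, interval of the log2 ratio 1.42 to 1.93), close to the limit of 1.5, and this call was lost with a limit of 2 and with a pseudocount of 1 (log2 fold change 1.15). 8505C-PTX was 20.5-fold above 8505C wt (log2 fold change 3.73, interval 3.71 to 5.11), on about 483 and 19 reads. Against 8505C wt, SW1736-PTX was 23.9-fold higher (log2 fold change 3.94).

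CYP1B1, which hydroxylates oestradiol and is often found outside the liver, had another pattern. Its deposited locus is chr2:38067603-38076181 on the minus strand. SW1736 wt had 10.4 FPKM, SW1736-PTX 0.439, 8505C wt 0.0796 and 8505C-PTX 0.241. Only SW1736 wt exceeded 0.5 FPKM. SW1736-PTX was 23.6-fold below SW1736 wt (log2 fold change -4.28, interval of the log2 ratio -4.83 to -4.31). In 8505C, where the gene was not compared, the PTX library had 3.03 times the wt level (log2 fold change 0.93), on about 66 and 18 reads, with an interval of the log2 ratio from 0.81 to 2.42. With 8505C wt as the reference, SW1736-PTX had 5.52 times its level (log2 fold change 1.59), so the direction of the SW1736 value turned with the reference. No 75-base window of CYP1A1 or CYP1B1 occurs in another gene.

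CYP2C8, CYP3A4 and CYP3A5 did not reach 0.5 FPKM in any library. CYP2C8, which forms the main hydroxylated product of paclitaxel (locus chr10:95036772-95069497, minus strand), was listed at 0 in all 4 libraries, in which 3 reads would correspond to between 0.0269 and 0.0358 FPKM. The files hold no counts, so a listed 0 need not be a count of 0. Of 77 ribosomal protein genes, 2 were listed at 0 in a library, RPL3L and RPL10L, which are tissue-restricted copies. CYP3A4, the most abundant P450 enzyme of liver (locus chr7:99756960-99784188, minus strand), was listed at 0 in 3 libraries and at 0.0127 FPKM in SW1736-PTX, on about 2 reads. CYP3A5, its close relative (locus chr7:99648189-99680026, minus strand), had 0.0227, 0.0137 and 0.0554 FPKM in SW1736 wt, SW1736-PTX and 8505C wt and was listed at 0 in 8505C-PTX, on no more than about 4 reads. No difference in these genes can be read at this depth.

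SLCO1B3 encodes OATP1B3, an uptake carrier of the hepatocyte membrane, and its deposited locus is chr12:20810704-20916909 on the plus strand. In SW1736 it had 4.64 FPKM in wt cells and was listed at 0 in PTX cells, and in 8505C it had 1.78 FPKM in wt and 0.434 in PTX cells. Both PTX libraries were below both wt libraries. 8505C-PTX was 4.10-fold below 8505C wt (log2 fold change -1.81, interval of the log2 ratio -2.44 to -1.64), on about 70 and 233 reads, and the call was lost with a limit of 2 and with a pseudocount of 1 (log2 fold change -0.95). For SW1736-PTX no ratio is given, since the gene is only listed at 0 there, beside about 684 reads in SW1736 wt. It was called lower in SW1736-PTX against either wt library. Of its 75-base windows, 63.2% also belong to the readthrough transcript SLCO1B3-SLCO1B7, so which of them the reads came from is uncertain. SLCO1B7, the other gene of that readthrough, was at or below 0.0646 FPKM in all 4 libraries, and the part of readthrough in the SLCO1B3 values was not tested. In the same stretch of chromosome 12, SLCO1B1 and SLCO1A2, which also carry taxanes, were at or below 0.0367 FPKM in all 4 libraries, and PDE3A, a cyclic nucleotide phosphodiesterase, was listed at 0 in SW1736 wt and had 4.01, 2.33 and 20.9 FPKM in SW1736-PTX, 8505C wt and 8505C-PTX (log2 fold change 3.11 in 8505C, and 0.76 and not called in SW1736-PTX against 8505C wt).

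**Figure D2:**
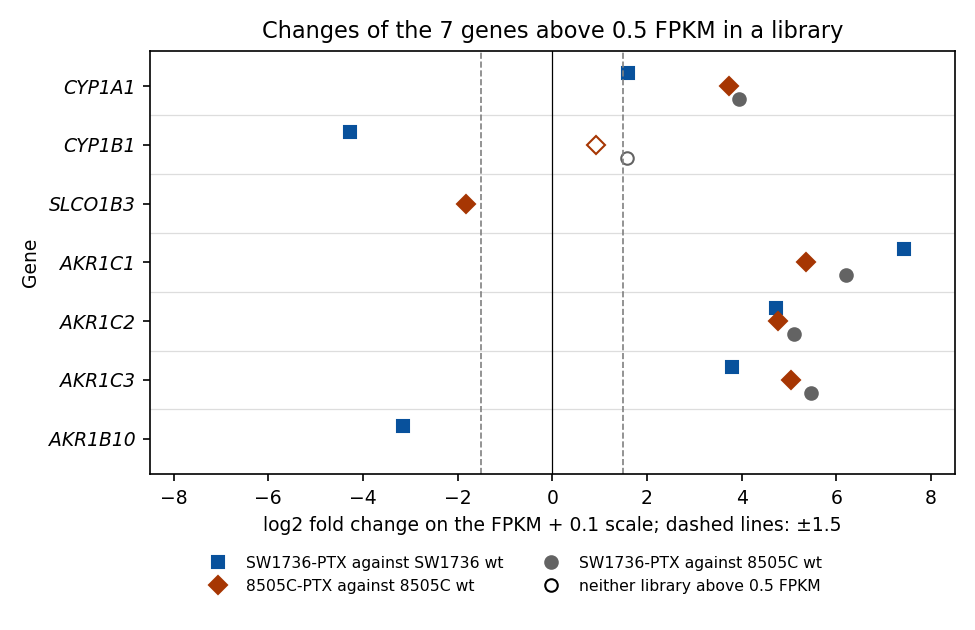
Log2 fold change on the FPKM + 0.1 scale of the 7 genes that exceeded 0.5 FPKM in a library, with dashed lines at 1.5 in either direction. Squares are SW1736-PTX against SW1736 wt, diamonds 8505C-PTX against 8505C wt and circles SW1736-PTX against 8505C wt, open symbols mark pairs with neither library above 0.5 FPKM, and pairs with a library listed at 0 have no symbol. The AKR1C genes and CYP1A1 lie to the right under each reference, and CYP1B1 lies on opposite sides.

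**Figure D3:**
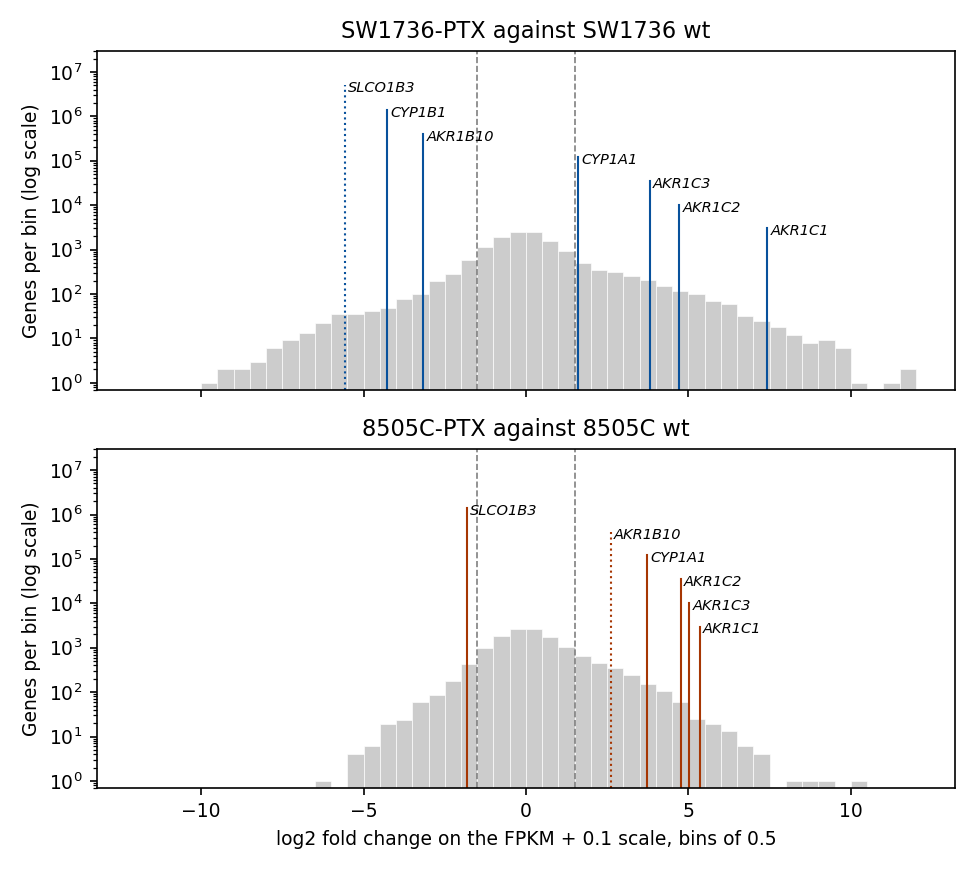
Number of genes per bin of log2 fold change (0.5 wide, log axis) among all genes compared, 14202 in SW1736 and 13794 in 8505C, with vertical lines at the compared genes of the set and dashed lines at 1.5 in either direction. Line heights only separate the names, and a dotted line marks a gene with a library listed at 0, whose place is set by the pseudocount. AKR1C1 ranks 58 and 54 from the highest, and CYP1A1 ranks 2110 and 309.

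More of these genes were called between the wt libraries than between the PTX libraries, and the same held for all genes. Between SW1736 wt and 8505C wt, 6 genes could be compared and 4 were called, all higher in SW1736 wt, beside 17.6% called among 13457 genes (9.92% higher and 7.73% lower). The called genes were CYP1B1 (log2 fold change 5.87, 130-fold), CYP1A1 (2.35, 7.53-fold), AKR1C3 (1.66, 3.32-fold) and AKR1B10, which was listed at 0 in 8505C wt. CYP1B1, CYP1A1 and AKR1B10 exceeded 0.5 FPKM in SW1736 wt but not in 8505C wt, so they could not have been called lower. With the minimum required in both libraries, 1 of 3 compared was called. SLCO1B3 was 2.61-fold higher in SW1736 wt (log2 fold change 1.33) and AKR1C1 was 2.54-fold lower (log2 fold change -1.21), and neither was called. AKR1C2, below 0.5 FPKM in both, was not compared.

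Between SW1736-PTX and 8505C-PTX, 5 genes could be compared and 0 were called, beside 7.79% called among 13986 genes (4.09% higher and 3.7% lower). The log2 fold change was 0.86 for AKR1C1, 0.43 for AKR1C3, 0.34 for AKR1C2, 0.22 for CYP1A1 and -0.20 for AKR1B10. The counting interval of the log2 ratio excluded 0 for the first 4, the narrowest being that of AKR1C1 (0.80 to 0.91), and it included 0 for AKR1B10 (-0.87 to 0.44). Whether 2 cultures of 1 line would differ by as much is unknown. SLCO1B3, listed at 0 in SW1736-PTX and at 0.434 FPKM in 8505C-PTX, was not compared.

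CYP2C8, CYP3A4 and SLCO1B3 act in the liver, so hepatocyte markers were examined beside the set. Of 8 such markers, 7, 4, 5 and 4 were listed at 0 in SW1736 wt, SW1736-PTX, 8505C wt and 8505C-PTX, and their summed level was 7.73, 2.06, 1.24 and 2.81 FPKM. SERPINA1 (alpha-1 antitrypsin) had 7.73, 1.78, 0.217 and 1.96 FPKM and was highest in SW1736 wt, as CYP1B1, AKR1B10 and SLCO1B3 were. Albumin (ALB) was at or below 0.11 FPKM, and APOA2, APOB, TTR and HP were listed at 0 in every library. The other hepatocyte markers above 0.5 FPKM were FGB in 8505C wt (0.840) and APOA1 in 8505C-PTX (0.601).

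Markers of other cell types also differed among the libraries. Of 3 fibroblast markers, the PDGF receptor PDGFRB had 0.402, 6.08, 0.0922 and 6.49 FPKM, while DCN and LUM were at or below 0.274, and the summed level was 0.402, 6.17, 0.119 and 6.81. Of 3 endothelial markers, CDH5 had 55.9 FPKM in 8505C wt and 4.54 in 8505C-PTX, and the summed level was 0.0187, 0.427, 55.9 and 4.82. Of 4 immune markers, CD14 alone exceeded 0.5 FPKM (0.894, 0.707, 0.576 and 4.50), and PTPRC, which marks all leukocytes, was at or below 0.0197. Of 4 epithelial markers, the keratins KRT8 (331, 973, 440 and 974 FPKM) and KRT18 (257, 1437, 512 and 1240) were high, whereas EPCAM and CDH1 were at or below 0.0806. The part of these shifts in the enzyme values was not tested.

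The genes around the members in the same pathways were examined as 14 lists with 178 different genes, and the part of each list above 0.5 FPKM was compared in each line, beside the 25.9% and 20.9% of all genes called and the medians of 0.01 and 0.11 given above. Genes listed at 0 in a library enter the counts and medians at the place the pseudocount gives them. The other P450 genes of families 1 to 3, which include most drug-metabolizing forms, held 19 genes, of which 13 did not exceed 0.5 FPKM in any library. In SW1736-PTX, 4 of 6 compared were called higher and 0 lower, with a median log2 fold change of 1.90, and in 8505C-PTX 2 of 5 were higher and 0 lower, with a median of 1.15. Of the genes called in SW1736-PTX, CYP1A2, CYP2D6 and CYP2D7 were below 0.5 FPKM in SW1736 wt and at or below 1.35 in SW1736-PTX. They entered through the PTX library alone and could not have been called lower. With 8505C wt as the reference of SW1736-PTX, 4 of 6 were higher and the median was 2.23, and CYP1A2 and CYP2D7 again entered through the PTX library alone. CYP2S1, an epithelial P450 that is itself AHR-inducible, was called higher in both lines, with 1.43, 20.8, 2.09 and 19.7 FPKM (log2 fold change 3.77 and 3.18). CYP1A2, the neighbour of CYP1A1, had 0.0608, 0.579, 0.0196 and 0.330 FPKM and was called higher in SW1736-PTX (2.08), while in 8505C it was not compared. CYP2R1, a vitamin D 25-hydroxylase, was called higher in 8505C-PTX (2.05) and had 1.05 in SW1736-PTX (2.31 against 8505C wt).

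Of 12 P450 genes of family 4, which act on fatty acids, 3 were compared in each line, with 2 called higher in SW1736-PTX and 3 in 8505C-PTX and 0 lower, and 3 of 3 higher in SW1736-PTX against 8505C wt. No gene of this list exceeded 0.5 FPKM in 8505C wt, so those compared with it entered through a PTX library alone and could not be called lower. The genes called in SW1736-PTX against SW1736 wt, CYP4B1 and CYP4V2, entered in the same way. CYP4V2, a fatty acid hydroxylase, had 0.438, 2.73, 0.463 and 4.21 FPKM (log2 fold change 2.39 and 2.94). CYP4B1 was listed at 0 in both wt libraries and had 1.19 FPKM in SW1736-PTX and 1.37 in 8505C-PTX. CYP4F11 was listed at 0 in 8505C wt and had 0.706, 0.524 and 0.612 FPKM in SW1736 wt, SW1736-PTX and 8505C-PTX.

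Of 20 P450 genes of family 5 and above, mostly of sterol and vitamin metabolism, 2 of 6 compared were called higher in SW1736-PTX and 3 of 7 in 8505C-PTX, with 0 lower in both, and 3 of 6 higher in SW1736-PTX against 8505C wt. The genes called in 8505C-PTX, CYP26B1, CYP27C1 and CYP39A1, were below 0.5 FPKM in 8505C wt and could not have been called lower. The same limit held for CYP26B1 and CYP27C1 where they were called higher in SW1736-PTX against 8505C wt. Of the genes called against SW1736 wt, CYP27B1 had a wt level of 0.156 and a PTX level of 0.648 FPKM (log2 fold change 1.55). It entered through the PTX library alone, could not have been called lower, and had -0.14 against 8505C wt. CYP51A1, a demethylase of cholesterol synthesis, had 17.5, 146, 22.5 and 53.7 FPKM (log2 fold change 3.06 and 1.25). CYP27C1, a retinoid desaturase, had 3.97, 1.69, 0.0317 and 1.62 FPKM (-1.19 and 3.71), and its value in SW1736-PTX turned to 3.76 with 8505C wt as the reference. CYP26B1, which breaks down retinoic acid, was listed at 0 in 8505C wt and had 0.783, 1.24 and 1.43 FPKM in SW1736 wt, SW1736-PTX and 8505C-PTX.

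Beyond AKR1B10, few aldo-keto reductase genes could be compared. Of 8 others, 3 were compared in each line and 0 were called, with a median log2 fold change of -0.52 in SW1736-PTX, 0.69 in 8505C-PTX and 0.55 in SW1736-PTX against 8505C wt. AKR1B1, aldose reductase, had 296, 128, 53.8 and 91.9 FPKM (log2 fold change -1.20 and 0.77, and 1.26 in SW1736-PTX against 8505C wt) and was singled out after its values were seen. Of 7 carbonyl reductases of other families, 6 were compared in each line, with 1 called in each direction in SW1736-PTX and 0 in 8505C-PTX. Against 8505C wt, SW1736-PTX had 0 called higher and 1 lower, CBR3 (-1.52), while CBR4 had 1.114 and was not called. CBR3 had 32.0, 6.51, 18.8 and 9.96 FPKM (-2.28 and -0.91) and CBR4 had 2.10, 7.54, 3.43 and 6.03 (1.80 and 0.80).

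Of 11 other SLCO carriers, 3 were compared in each line and 1 was called higher in each, SLCO2A1. This carrier of prostaglandins was listed at 0 in SW1736 wt and had 0.592, 0.0508 and 4.72 FPKM in SW1736-PTX, 8505C wt and 8505C-PTX (log2 fold change 5.00 in 8505C). Under each reference it entered through the PTX library alone and could not have been called lower. Against 8505C wt, 2 of 3 were higher in SW1736-PTX. Of 4 other carriers with taxane uptake, SLCO1B1, SLCO1A2, SLC22A7 and SLC10A1, none exceeded 0.5 FPKM in any library.

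Of 10 genes for the redox partners and the heme of P450 enzymes, all were above 0.5 FPKM in all 4 libraries. PGRMC1, a heme-binding partner, was called lower in SW1736-PTX (log2 fold change -1.501, just past the limit, and -0.51 in 8505C), and CYB5A and FDXR, which donate electrons, were called higher in 8505C-PTX (1.75 and 2.198, and 0.14 and 0.13 in SW1736). The list median was 0.32 and 0.64, and with 8505C wt as the reference of SW1736-PTX 4 of 10 were higher, 0 lower and the median was 0.84 (PGRMC1 -0.97, CYB5A 2.202, FDXR 2.12).

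Of 9 genes for AHR, its partners and other targets, 1 of 8 compared was called lower in SW1736-PTX and 0 of 7 were called in 8505C-PTX, with medians of 0.21 and 0.73. The lower gene was ARNT2, a partner of AHR-type factors, with 7.73, 0.492, 0.381 and 0.269 FPKM (log2 fold change -3.73 in SW1736). It exceeded 0.5 FPKM in SW1736 wt alone and could not have been called higher there. That call was lost and its sign turned against 8505C wt (0.30), where 0 of 7 genes of the list were called. AHR had 11.5, 21.4, 14.5 and 40.5 FPKM (0.89 and 1.47) and NQO1, a quinone reductase induced by AHR and NRF2, had 154, 154, 104 and 86.9 (singled out after their values were seen).

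Of 7 xenobiotic nuclear receptors and partners, among them PXR (NR1I2), which drives CYP3A4, 4 were compared in each line and 0 were called, also with 8505C wt as the reference of SW1736-PTX. Of 15 regulators and targets of NRF2, 2 of 15 were called higher in SW1736-PTX, 1 of 14 in 8505C-PTX and 0 lower, and the medians were 0.06 and -0.05 (0.40 in SW1736-PTX against 8505C wt, with 2 of 15 higher). ME1, malic enzyme, had 1.94, 6.28, 7.79 and 11.3 FPKM (1.64 and 0.53), a call that was lost and turned to -0.31 against 8505C wt, and ABCC2, an export pump, had 0.102, 0.643, 0.106 and 0.360 (1.88 in SW1736, and 1.85 against 8505C wt). ABCC2 exceeded 0.5 FPKM in SW1736-PTX alone and could not have been called lower under either reference.

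**Figure D4:**
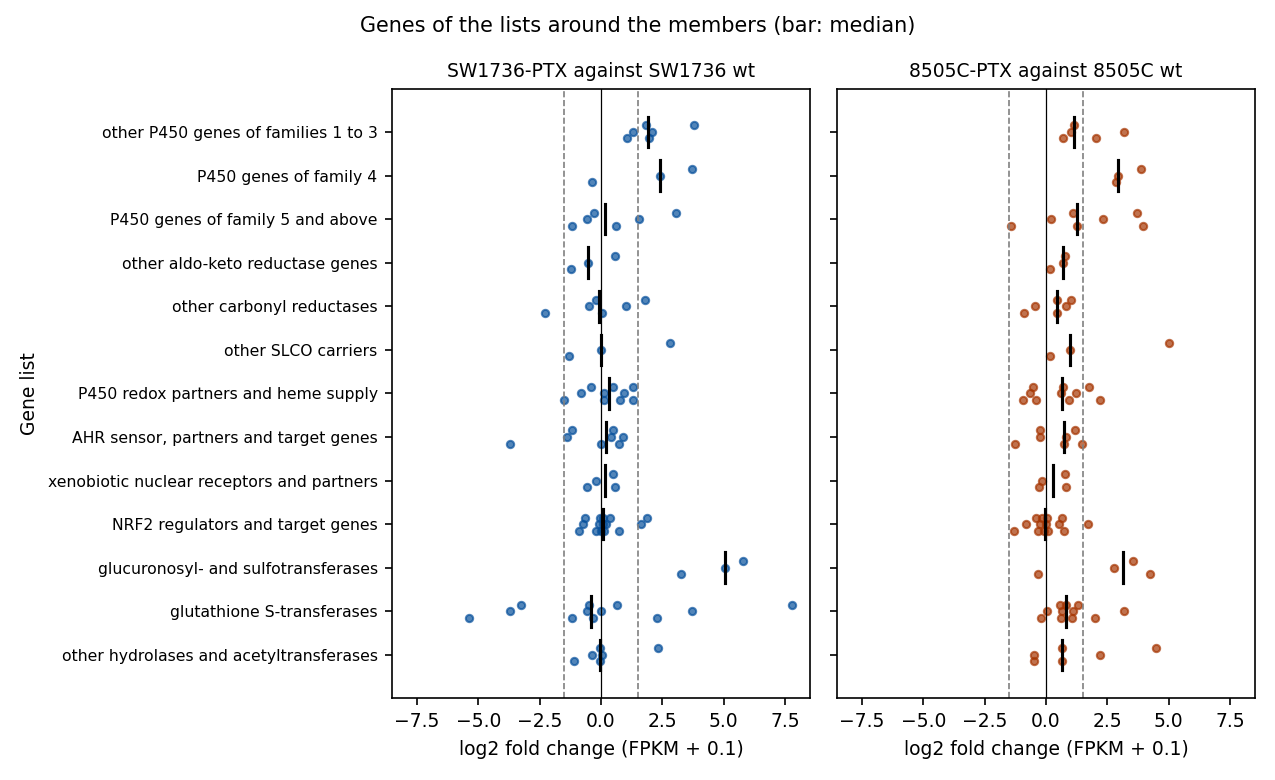
Log2 fold change on the FPKM + 0.1 scale of each compared gene of the lists, 1 point per gene, with a black bar at the list's median and dashed lines at 1.5 in either direction, for SW1736 on the left and 8505C on the right. Points of the P450 lists reach further right than left in both lines, while the lists of other aldo-keto reductases and of xenobiotic nuclear receptors have 0 genes beyond the dashed lines. Several of these P450 genes exceeded 0.5 FPKM in the PTX library only, so their points could not lie to the left. The list of other taxane carriers has no compared gene and is not drawn.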

How the data were processed

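RNA was extracted from wt and PTX cells of both lines and sequenced as single-end reads of 75 bp, 1 library per group. Per the submitters' processing notes and the study's methods, bcl2fastq 2.20 was used for demultiplexing, Cutadapt and ERNE for trimming, STAR for alignment to hg38 and StringTie for quantitation. The annotation and the settings are not given in the sources used here. The tables deposited by the authors give coverage, a signal per base that is not scaled to depth. The deposited FPKM, made by the authors, are scaled to gene length and depth. The deposited TPM are scaled to an equal total per library and were used as an alternative. The files hold no counts.

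The FPKM of rows with the same gene name were summed, and log2 fold changes were computed with a pseudocount of 0.1 for genes above 0.5 FPKM in at least 1 library, with a limit of 1.5. The FPKM minimum and the limit follow the study's methods. Depth was the highest ratio of coverage to FPKM, divided by the read length (48.9 M reads in SW1736 wt, 57.9 M in SW1736-PTX, 43.5 M in 8505C wt and 53.6 M in 8505C-PTX). Reads per gene were estimated from FPKM, this depth and the bases of the GENCODE release 44 MANE transcript inside the deposited locus. Intervals of ratios are exact binomial intervals of these estimates. Scripts were tested on simulated data. Promoters were read from RefSeq (GRCh38.p14) and aligned globally with Biopython 1.88. Python 3.11.15, NumPy 2.4.6, pandas 2.3.3, SciPy 1.17.1 and matplotlib 3.10.9 were used.

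The members and lists were chosen with earlier results of these data known. All members are named. From each list, the text names genes called the same way in both lines and the 3 largest changes among called genes. For each expressed member, the 3 genes with the most similar pattern are named, and of the marker lists the genes above 0.5 FPKM. Some genes that this rule names are not reported here.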

Additional observations from a re-analysis of the deposited data

Results flagged for a closer look

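CYP1B1 had effects of opposite sign in the lines, with a log2 fold change of -4.28 in SW1736-PTX against SW1736 wt and 0.93 in 8505C-PTX against 8505C wt, where neither library exceeded 0.5 FPKM. AKR1B10 likewise had -3.16 in SW1736 and 2.60 in 8505C, where the wt library was listed at 0 and the value is set by the pseudocount. With 8505C wt as the reference of SW1736-PTX, the values turned to 1.59 for CYP1B1 and 2.41 for AKR1B10, with neither library above 0.5 FPKM. With 1 library per group, neither difference between the lines was tested. In both genes SW1736 wt was the library that stood highest (10.4 and 4.63 FPKM), and the remaining libraries were at or below 0.508 FPKM.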

How the results depend on the processing

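The labels give no replicate numbers and there was 1 library per group, so no replicate could be left out. Wt and PTX cells are paired by line and each line is described on its own, and a fit with line as a block, which would treat the lines as replicates of 1 condition, was not run. The count of genes called in SW1736 went from 7 to 3 when both libraries had to exceed 0.5 FPKM, and that in 8505C from 6 to 2. AKR1C1 and AKR1C3 were called higher in both lines under every alternative run. Between the wt libraries, the count went from 4 to 2 with a pseudocount of 1 and to 1 with the minimum in both libraries. Between the PTX libraries it went from 0 to 1 without a minimum (SLCO1B3). Of the 178 list genes, 25 were called in SW1736, 13 with a pseudocount of 1 and 11 with the minimum in both libraries, and 19 were called in 8505C, 11 and 9 under these settings and 33 with a limit of 1. A larger pseudocount lowers the weight of genes near 0, the minimum in both libraries removes genes, and dropping the minimum or lowering the limit adds genes. TPM, centring on the median and the highest row of a name each kept these counts within 1.5 times. With 8505C wt as the reference of SW1736-PTX, chosen after seeing the data, CYP1B1 turned to 1.59 and AKR1B10 to 2.41 (log2 fold change), both below 0.5 FPKM in either library. AKR1C2 (5.44) and AKR1B10 (5.69) passed AKR1C1 (5.43) in 8505C with a pseudocount of 0.01. No other log2 fold change of the 10 genes changed sign under the alternatives run. With 1 library per group, the spread between cultures is unknown, and levels under that of 3 reads cannot be told from 0.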

Other observations

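The conjugating enzymes that act after P450 enzymes and reductases were examined as 2 lists. Of 32 glucuronosyl- and sulfotransferase genes, 28 did not exceed 0.5 FPKM in any library, 3 of 3 compared were called higher in SW1736-PTX and 3 of 4 in 8505C-PTX, with 0 lower. No gene of this list exceeded 0.5 FPKM in SW1736 wt. Those compared in SW1736 thus entered through the PTX library alone, and none could have been called lower there. With 8505C wt as the reference of SW1736-PTX, 1 of 3 was higher and the median log2 fold change went from 5.03 to 0.66. SULT1A1, which adds sulfate to phenols, had an FPKM of 0.0771 in SW1736 wt, 5.69 in SW1736-PTX, 1.45 in 8505C wt and 18.0 in 8505C-PTX (log2 fold change 5.03 and 3.54). SULT1A3, which adds sulfate to dopamine, had 0.289, 3.57, 2.23 and 15.7 FPKM (3.24 and 2.77, and 0.66 in SW1736-PTX against 8505C wt) and is nearly identical to SULT1A4, so their split is uncertain. SULT1A4 was listed at 0 in SW1736 wt and had 5.47, 4.95 and 3.92 FPKM in the others. SULT1C2 was listed at 0 in both wt libraries and had 0.0760 FPKM in SW1736-PTX and 1.81 in 8505C-PTX. In 8505C it entered through the PTX library alone and could not have been called lower.

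Of 20 glutathione S-transferase genes, 3 of 12 compared were called higher and 3 lower in SW1736-PTX (median log2 fold change -0.42), and 2 of 11 were higher and 0 lower in 8505C-PTX (median 0.80). Against 8505C wt, 1 of 11 was higher and 0 lower in SW1736-PTX (median 0.72). GSTO2 was the gene called higher there and was also called higher in 8505C-PTX, with 6.04, 0.543, 0.0717 and 0.576 FPKM. It was below 0.5 FPKM in 8505C wt, so it could not have been called lower against that library. Against SW1736 wt it was called lower in SW1736-PTX (-3.26). GSTA4, which conjugates lipid aldehydes, was called higher in both, with 0.536, 3.01, 1.48 and 14.01 FPKM (2.29 and 3.16), but not in SW1736-PTX against 8505C wt (0.98). GSTM3 was listed at 0 in SW1736 wt and had 22.1, 13.4 and 21.3 FPKM in SW1736-PTX, 8505C wt and 8505C-PTX, while GSTM4 had 4.07 FPKM in SW1736 wt and was listed at 0 in the others. Against SW1736 wt, each of these could be called in 1 direction only. MGST2, a microsomal form, had 1.28, 17.9, 7.23 and 15.4 FPKM (3.70 and 1.08, and 1.29 against 8505C wt). In these last 3 genes, SW1736-PTX was nearer to 8505C wt than to SW1736 wt, as it was in the thyroid factors, and the reason was not tested. Of 8 hydrolases and acetyltransferases, 1 of 6 was called higher in SW1736-PTX and 2 of 6 in 8505C-PTX, and 2 of 6 in SW1736-PTX against 8505C wt. EPHX2, the soluble epoxide hydrolase, was called higher in both, with 0.766, 4.27, 0.215 and 6.88 FPKM (2.34 and 4.47), and EPHX1, the microsomal form, had 47.3, 36.6, 12.1 and 56.5 (-0.37 and 2.21, and 1.59 in SW1736-PTX against 8505C wt). EPHX2 was below 0.5 FPKM in 8505C wt, so it could not have been called lower in a PTX library set against 8505C wt.

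Around CYP3A4 and CYP3A5 on chromosome 7, 45 other genes lie within 500000 bp. In SW1736-PTX 36 of them were compared, 25 called lower and 1 higher, with a median log2 fold change of -1.87, beside 10.2% called lower among all genes. In 8505C-PTX 30 were compared, 5 called lower and 3 higher, with a median of -0.94, beside 5.89% called lower. In SW1736-PTX against 8505C wt 30 were compared, 5 called lower and 2 higher, with a median of -0.96, beside 5.23% called lower. Neighbouring genes are not independent of each other.

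The genes with the most similar pattern over the 4 libraries were found among 14692 genes by the root mean square difference of centred log2 levels. They were KCNAB2 (0.128), LMNTD2 (0.172) and PCED1B (0.185) for CYP1A1, and P2RY6 (0.0891), FAM133A (0.278) and RCN3 (0.302) for CYP1B1. For AKR1C1 they were MMP28 (0.449), RIMS4 (0.453) and COLEC12 (0.482), for AKR1C2 DOK5 (0.193), ARHGAP6 (0.220) and GPC4 (0.240), and for AKR1C3 PDGFRB (0.213), NGEF (0.284) and GRID1 (0.297). For AKR1B10 they were PAOX (0.0867), OAS2 (0.192) and OASL (0.212), and for SLCO1B3 MIR4444-1 (0.436), DEF6 (0.453) and SLC1A3 (0.503). With 4 libraries many genes share a pattern, and likeness here is a description only.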
